A study of Caenorhabditis elegans with 2 samples.

Results

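Binding of the transcription factor AHA-1 was examined at the genes that make, use and clear hydrogen sulfide (H2S) and cysteine in Caenorhabditis elegans. The genes were a named list of 10 symbols: sqrd-1, sqrd-2, ethe-1, cysl-1, cysl-2, cysl-3, cth-1, cth-2, cbs-1 and cbs-2. Of these, 9 matched a gene of that symbol among the 19973 protein-coding genes of the Ensembl annotation of assembly WBcel235 (ce11), and sqrd-2 was not analysed here. AHA-1 corresponds to mammalian ARNT, the shared partner with which bHLH-PAS factors, among them the oxygen-regulated HIF-1, bind DNA. The study mapped it by chromatin immunoprecipitation and sequencing (ChIP-seq) of an eGFP fusion in first-stage (L1) larvae.

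All samples were whole larvae of strain OP124, which carries the allele unc-119(ed3) on chromosome III and the transgene wgIs124, an insertion that encodes the tagged AHA-1. The larvae were of mixed sex, their age was recorded as unknown, and the labels do not describe the promoter of the transgene, the growth conditions or any exposure to H2S or low oxygen. The 2 biological replicates formed 1 group with no second condition, so nothing was tested between conditions, and the cell types in which a site was bound could not be resolved. The files were lists of regions rather than reads, so the sequencing depth behind each value is unknown, and the replicates are the only measure of error.

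H2S is made in animal cells chiefly by the transsulfuration enzymes, which move sulfur from homocysteine through cystathionine to cysteine. It is cleared in mitochondria, where sulfide:quinone oxidoreductase oxidises it to a persulfide and a sulfur dioxygenase carries the oxidation on to sulfite. In C. elegans H2S is known to act through HIF-1: the protein CYSL-1 binds EGL-9, the hydroxylase that marks HIF-1 for destruction, and sqrd-1 and cysl-2 are known as genes induced through HIF-1.

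For each gene a window was taken from 3 kb upstream of its outermost annotated transcript start to its end. A region was counted where its summit, the position of strongest enrichment, lay in that window. The authors' relaxed lists, which hold peaks and background together, had 30000 regions for the pooled replicates, 24611 for replicate 1 and 18195 for replicate 2. Their thresholded list, a selection of pooled regions made on the irreproducible discovery rate (IDR), had 530 peaks, whose lowest signal value was 18.4. The next pooled region below that limit had 18.3. Signal values are the authors' and have no stated scale, so they are compared by rank within one list, and the median pooled region had 4.27.

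The sequences shown are of 5 regions that hold the word ACGTG, a core sequence of the hypoxia response element that HIF-1 and its partner recognise. They are the strongest regions of sqrd-1, cysl-3, cth-2 and cbs-1 and the weaker upstream region of cysl-2; the strongest regions of the other 5 genes have no ACGTG near the summit. They were read from the RefSeq WBcel235 genome and are written 5′ to 3′ on the strand of the gene. Capitals mark ACGTG, or its complement where the word lies on the other strand. They likewise mark GCGTG, the core of the xenobiotic response element, on either strand. For sqrd-1 the 75 bp up to the base before its start are given, chrIV:14219796-14219870 on the plus strand, since the summit lies on the start itself. The others reach 50 bp to either side of a summit: cysl-3 at chrV:3777135-3777235, cth-2 at chrII:7059097-7059197, the weaker cysl-2 region at chrII:14495623-14495723, all on the minus strand, and cbs-1 at chrX:10051788-10051888 on the plus strand.
sqrd-1: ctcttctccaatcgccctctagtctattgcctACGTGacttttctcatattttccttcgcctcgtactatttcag
cysl-3: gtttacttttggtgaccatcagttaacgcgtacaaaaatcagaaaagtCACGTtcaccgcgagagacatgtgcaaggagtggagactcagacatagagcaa
cth-2: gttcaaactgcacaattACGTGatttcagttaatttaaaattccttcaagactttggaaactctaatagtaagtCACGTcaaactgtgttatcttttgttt
cysl-2: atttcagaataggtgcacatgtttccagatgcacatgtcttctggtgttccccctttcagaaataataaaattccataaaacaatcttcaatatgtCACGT
cbs-1: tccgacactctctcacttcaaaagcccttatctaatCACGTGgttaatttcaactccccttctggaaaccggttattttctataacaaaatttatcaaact

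The genes of sulfide oxidation come first. SQRD-1 is the mitochondrial sulfide:quinone oxidoreductase, and its gene (chrIV:14219871-14224440, plus strand) held the strongest region of the list. That peak, chrIV:14219784-14219927, had its summit on the outermost of the 4 annotated starts, in the 5′ UTR. Its signal was 85.1 in the pooled list, where it ranked 7 of 30000. In replicate 1 the signal was 49.9 at rank 13, and in replicate 2 it was 32.1 at rank 8, with summits 4 bp and 20 bp from the pooled one. Both replicates thus placed it among their 20 strongest regions and at the same position. Only 9 protein-coding genes, 0.0451% of all, had a stronger region in their window. The peaks next to it in rank were nearest to rpl-15, with signal 89.3, and to tasp-1, with signal 83.2. A single ACGTG lay within 50 bp of the summit, 41 bp upstream of the start and on the strand of the gene. The only other pooled region in the window, in an intron 913 bp inside the gene, had signal 3.84 at rank 18577, below the list's median.

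ETHE-1 is the mitochondrial persulfide (sulfur) dioxygenase that acts after SQRD-1. Its gene (chrIV:9506936-9508761, minus strand) had 5 pooled regions and none in the thresholded list. The strongest, chrIV:9511349-9511664, lay 2746 bp upstream and had signal 14.0 at rank 838 of the pooled list. It had signal 7.49 in replicate 1 and 6.42 in replicate 2, with summits within 21 bp of the pooled one, so both replicates listed it. It sits in an intron of the neighbouring gene C33A12.3 and is closer to that gene's start, at 297 bp, than to ethe-1. The regions nearer to ethe-1 were weaker and had no match in replicate 2. One 832 bp upstream had a pooled signal of 6.52, and one 60 bp upstream had 4.24, close to the median of the pooled list. The latter, chrIV:9508771-9508871 around its summit, holds an ACGTG 97 bp upstream of the start. Regions of 3.33 at 1454 bp upstream and 2.96 at 394 bp inside the gene made up the rest. The nearest thresholded peak to the ethe-1 start was 64161 bp away.

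The cysteine synthase family of C. elegans includes proteins known for their part in H2S and cyanide responses. CYSL-2 is a cyanoalanine synthase, which uses cysteine to fix cyanide and releases H2S. Its gene (chrII:14492874-14494451, minus strand) was the other listed gene with a thresholded peak, but that peak rested on one replicate. The peak, chrII:14496827-14497142, had a pooled signal of 25.7 at rank 288. In replicate 1 it had signal 22.3 at rank 154, with a summit 9 bp away. Replicate 2 listed no summit within 150 bp, and its closest region, 851 bp away, had signal 2.71 at rank 10522 of 18195. The peak lay 2534 bp upstream of cysl-2 in an exon of the non-coding RNA gene K10H10.14, and 1041 bp upstream of the start of dhs-8, the nearest protein-coding start. The peaks next to it in rank were nearest to C07H6.9, with signal 25.8, and ceh-5, with signal 25.6; the former also had no match in replicate 2, while the latter had 18.7 and 8.27 in the replicates.

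None of the core words lay within 50 bp of that cysl-2 summit. A GCGTG stood just outside, as the 151 bp around the summit show (chrII:14496910-14497060, minus strand):
cysl-2 thresholded peak: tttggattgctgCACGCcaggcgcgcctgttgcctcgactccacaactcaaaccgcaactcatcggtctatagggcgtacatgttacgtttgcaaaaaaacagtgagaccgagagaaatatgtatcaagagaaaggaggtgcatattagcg
A second region between this peak and the gene, chrII:14495515-14495830, lay 1222 bp upstream and held an ACGTG. Its pooled signal was 10.3 at rank 1422, and its signal in replicate 1 was 8.96 at rank 1026, with the summits at the same base. Replicate 2 listed no match for it either, so both upstream cysl-2 regions were seen in replicate 1 alone.

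CYSL-3 belongs to the same protein family. Its gene (chrV:3774536-3776136, minus strand) had an intergenic region, chrV:3777027-3777342, whose summit 1049 bp upstream fell on the middle base of an ACGTG. The pooled signal was 14.1 at rank 825, with 6.72 at rank 1848 in replicate 1 and 7.44 at rank 527 in replicate 2. By rank this site stood higher in replicate 2 than in replicate 1, the opposite of cysl-2. It fell outside the thresholded list, as did the other pooled region of the gene, which had signal 2.91, lies in an intron of R08F11.1 and holds the E-box CACGTG. A thresholded peak of signal 23.8 lay 4525 bp downstream of the cysl-3 start, past the end of the gene and so outside the window.

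CYSL-1, the member of the family that relays H2S to HIF-1 by binding EGL-9, had no upstream region in the pooled list. The stronger of its 2 pooled regions, chrX:9953171-9953486, lay in a coding exon 1204 bp inside the gene (chrX:9952579-9954533, minus strand). Its pooled signal was 7.06 at rank 3826, with 3.57 in replicate 1 and 3.81 in replicate 2. The other, 549 bp inside the gene, had signal 3.68, no match in either replicate and the only GCGTG within 50 bp of a pooled summit among the listed genes. Upstream, each replicate had a region by itself, which the other lists did not have: replicate 1 at 353 bp with signal 4.42 at rank 5652, its strongest in the window, and replicate 2 at 2239 bp with signal 2.37 at rank 13640. The upstream region of replicate 1 also held a GCGTG. Outside the window, a thresholded peak of signal 25.5 lay 4230 bp upstream of the cysl-1 start.

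**Figure D1:**
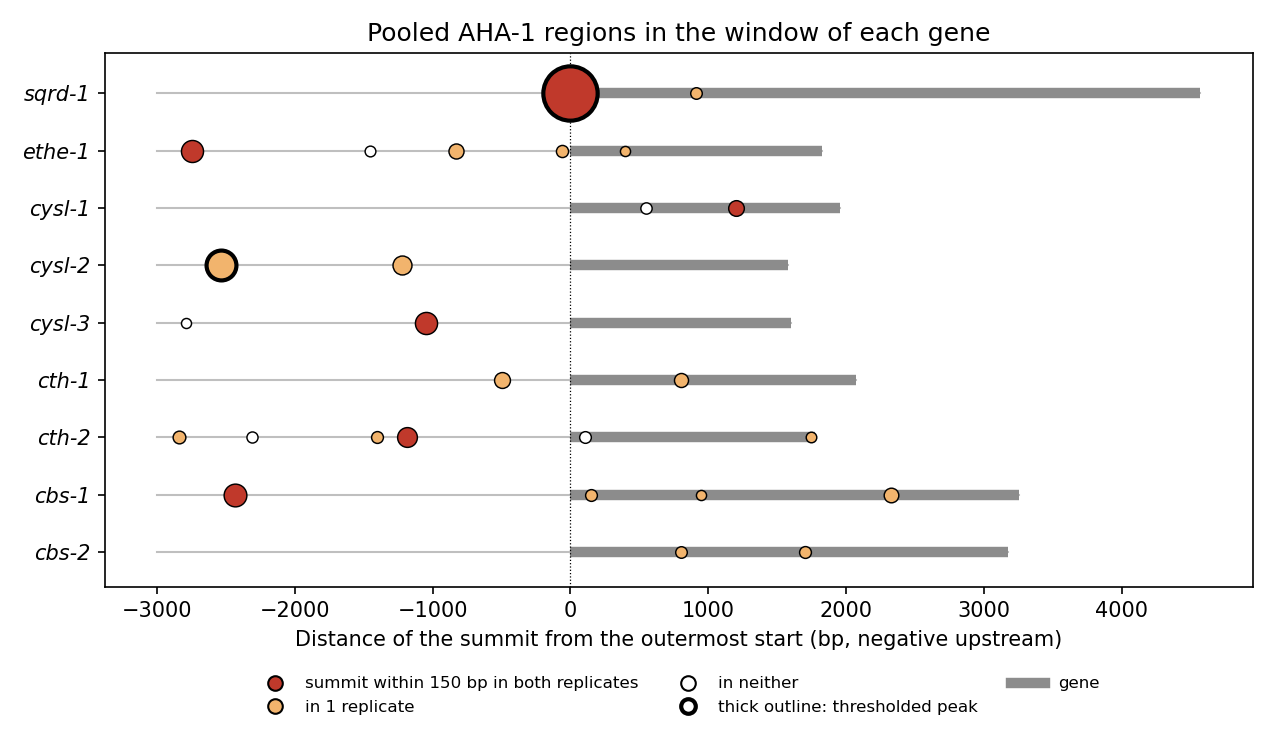
Pooled AHA-1 regions in the window of each gene, drawn by the distance of the summit from the outermost start in bp; the area of a circle is proportional to the pooled signal and its colour gives in how many replicates a summit lay within 150 bp. The sqrd-1 peak (signal 85.1) sits on the start and the cysl-2 peak (25.7, 1 replicate) 2534 bp upstream; these 2 have the thick outline of the thresholded list.

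The transsulfuration genes had no thresholded peak, and their strongest regions were weaker than those of sqrd-1 and cysl-2. They were not weaker than all others: cbs-1 at 14.9 was above cysl-3 and ethe-1, and cth-2 and cth-1 were above cysl-1. CBS-1 and CBS-2 are cystathionine beta-synthases, which join homocysteine and serine. At cbs-1 (chrX:10054275-10057528, plus strand) the strongest region, chrX:10051680-10051995, lay 2437 bp upstream in an intron of gnrr-3 and held a CACGTG centred within 12 bp of its summit. Its pooled signal was 14.9 at rank 753, with 9.35 at rank 932 in replicate 1 and 4.64 at rank 2183 in replicate 2. The summits of the 3 lists lay within 3 bp of each other, the closest placement among the listed genes. The nearest protein-coding start was that of gnrr-3, 2378 bp away, little closer than that of cbs-1. Regions inside cbs-1 had pooled signals of 6.15, 3.99 and 2.96, each matched in replicate 1 alone. At cbs-2 (chrII:2220396-2223567, minus strand) both pooled regions lay in introns, with signals of 4.03 and 3.86, below the median of the pooled list. The first was matched in replicate 1, with signal 6.15 at rank 2330, and the second in replicate 2, with signal 2.36, so no cbs-2 site was common to both replicates.

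CTH-1 and CTH-2 are cystathionine gamma-lyases, which release cysteine from cystathionine. At cth-2 (chrII:7056184-7057960, minus strand), with 6 pooled regions the most of any listed gene, the strongest lay in intergenic sequence 1187 bp upstream (chrII:7058989-7059304) and held 2 copies of ACGTG. Its pooled signal was 11.3 at rank 1210, with 6.02 at rank 2443 in replicate 1 and 3.53 at rank 5255 in replicate 2. The replicate 1 summit lay 108 bp from the pooled one and 106 bp from another pooled cth-2 region, with signal 4.03, which it also matched. The replicate 2 summit lay 40 bp from that of the strongest region. The 5 pooled regions other than the strongest had signals from 3.21 at rank 25423 to 4.66 at rank 12194. Only the highest of them was above the median of that list. At cth-1 (chrV:16100680-16102750, plus strand) the strongest region, chrV:16100023-16100338, lay 499 bp upstream and had a pooled signal of 7.26 at rank 3547. Replicate 1 had signal 4.07 with a summit 140 bp away, and the closest region of replicate 2, at 179 bp, had 2.996, so the replicates did not place this site alike. A region in a coding exon 800 bp inside cth-1 had a pooled signal of 5.67 and 6.09 in replicate 1, with no match in replicate 2.

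**Figure D2:**
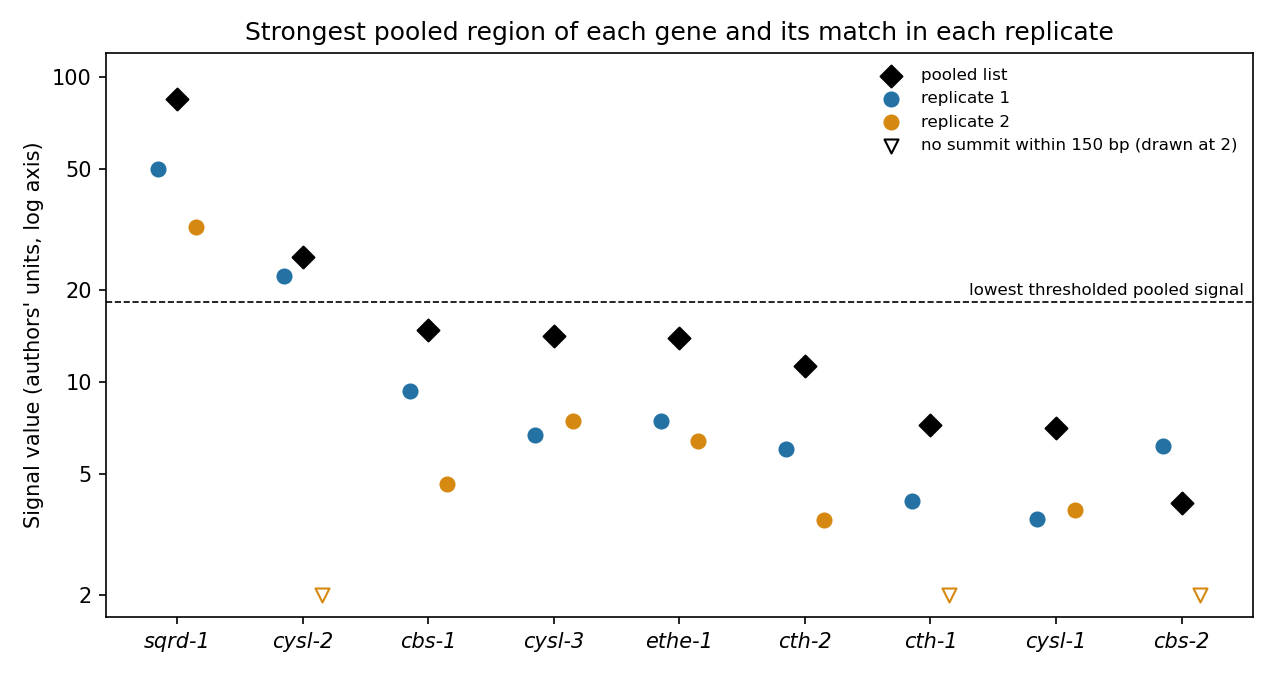
Signal of the strongest pooled region of each gene (diamonds) and of the region of each replicate with its summit within 150 bp (circles), on a log axis in the authors' units; open triangles drawn at 2 mark replicates with no such region. Of the 9 genes, sqrd-1 (85.1) and cysl-2 (25.7) lie above the lowest thresholded signal of 18.4, and cysl-2, cth-1 and cbs-2 lack a match in replicate 2.

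Read in order of pooled signal, the genes fell into sqrd-1 at 85.1, cysl-2 at 25.7, a group from cbs-1 at 14.9 through cysl-3 and ethe-1 to cth-2 at 11.3, then cth-1 and cysl-1 at 7.26 and 7.06, and cbs-2 at 4.03. The order within the middle group was not the same in the replicates: cysl-3 was the highest of these 4 genes in replicate 2 and lower than cbs-1 and ethe-1 in replicate 1. The place of sqrd-1 at the top was the same in both replicates. The cysl-2 peak came second in replicate 1 and had no match in replicate 2, where the strongest region anywhere in the cysl-2 window, with signal 2.71, was higher than that of cbs-2 alone. With 2 replicates no test of neighbours in this order was made.

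Set against all protein-coding genes, 2 of 9 listed genes (22.2%) had a thresholded peak in their window, where 4.21% of all 19973 genes did. The listed genes were chosen with earlier results of these data known, so their shares describe the genes picked. Windows of the listed genes were of ordinary length, from 4578 to 7570 bp with a median of 4955 bp against 5027 bp for all genes, and 4.03% of the 8878 genes with windows in that range had a thresholded peak. Of the 530 strongest regions of each replicate by itself, replicate 1 (without replicate 2) gave sqrd-1 and cysl-2 and 4.15% of all protein-coding genes, and replicate 2 (without replicate 1) gave sqrd-1 and cysl-3 and 3.89%. The next listed genes, cbs-1, cysl-3 and ethe-1, ranked from 753 to 838 in the pooled list. Counted by the highest −log10 q-value of the pooled list (3.33, shared by 1074 regions), 5 of 9 genes (55.6%) had such a region: sqrd-1, cysl-2, cbs-1, cysl-3 and ethe-1. The share was 7.89% of all protein-coding genes and 7.48% of those with windows as long; this count was chosen after the values were seen. Counted likewise in single replicates, it was 4 without replicate 2, where the share of all protein-coding genes was 10.7%, and 2 without replicate 1, where it was 5.57%. When each region was given only to its nearest protein-coding start, the first count was 1 (sqrd-1), against 2.23% of all protein-coding genes, and the second 2 (sqrd-1 and cysl-3), against 4.36%.

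Under looser rules most protein-coding genes were counted too. All 9 had a pooled region, as did 79.7% of protein-coding genes, and all 9 had a region of each replicate somewhere in the window, as did 51.3%. With the requirement that both replicates place a summit within 150 bp of the pooled one, 6 of the 27 pooled regions in the windows passed (22.2%), against 9.95% of all pooled regions. Those 6 were the strongest regions of sqrd-1, ethe-1, cysl-1, cysl-3, cth-2 and cbs-1. The median strongest signal was 14.0 over the 9 genes, 4.67 over all protein-coding genes with the 4045 that have no region set to 0, and 4.72 over genes with windows as long. The share of protein-coding genes with a stronger region was 2.32% for cysl-2, from 5.84% to 8.72% for cbs-1, cysl-3, ethe-1 and cth-2, 20.4% for cth-1, 21.7% for cysl-1 and 60.8% for cbs-2. These are counts over a named list of 9 genes, chosen with earlier results of these data known, and no test was made of them.

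**Figure D3:**
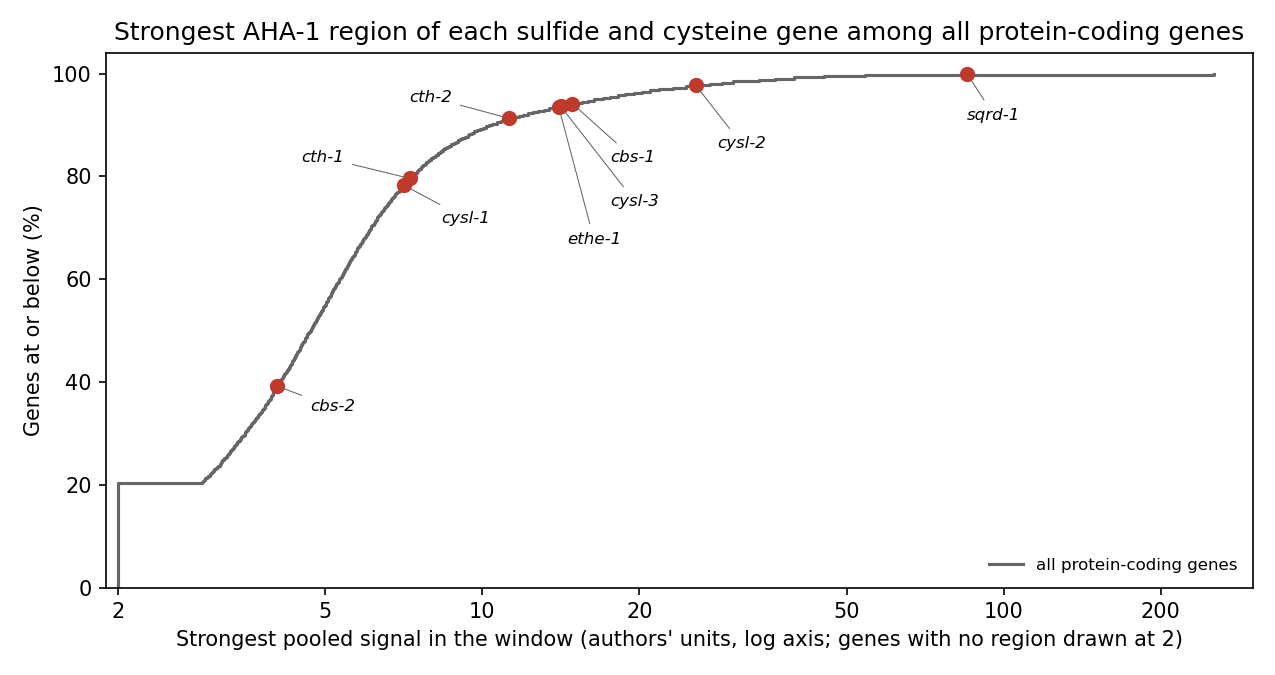
Cumulative share of protein-coding genes, in percent, by the strongest pooled signal in their window (log axis, authors' units), with the 9 genes as red points and genes with no region drawn at 2. The step at the left is the genes with no region, sqrd-1 (85.1) lies at the top end, and cbs-2 (4.03) lies below the median of all genes, 4.67.

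The sequence words were searched on both strands within 50 bp of each summit. ACGTG was present at 9 of the 27 pooled regions of the listed genes (33.3%), against 9.23% of all pooled regions and 19.8% of thresholded peaks. Among the strongest regions of the 9 genes it was present at 4: those of sqrd-1, cysl-3, cth-2 and cbs-1. The share among the strongest regions of all protein-coding genes was not computed for any word, so counts over the 9 strongest have no like background. CACGTG, which contains ACGTG on each strand, was present at 2 of the 27 regions (7.41%), against 1.93% of pooled regions and 4.72% of thresholded peaks. GCGTG was present at 1 of the 27 (3.7%) and at 0 of the 9 strongest, against 6.83% of pooled regions and 27.2% of thresholded peaks. ACGTG was thus commoner than GCGTG at the regions of the listed genes, as it was over all pooled regions, while among thresholded peaks GCGTG was the commoner. Some of the 9 regions with ACGTG were below the pooled median. These were both at ethe-1 (4.24 and 2.96), the weak cysl-3 region (2.91) and the cbs-1 coding exon (2.96). The words are short: the 9 windows held 74 copies of ACGTG counted on both strands, of which 12 lay within 50 bp of a pooled summit. In the stretch from 250 bp before to 50 bp after the outermost start, ACGTG was present in 4 of 9 genes (44.4%; sqrd-1, ethe-1, cysl-2 and cbs-2) and in 27.7% of all protein-coding genes.

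The bases around the word were then laid side by side for all 12 copies within 50 bp of a pooled summit of the listed genes, and for the thresholded peaks of related genes that hold it (egl-9, rhy-1, skn-1 and cdo-1, described next). This comparison was chosen after the sequences were seen. Each line below has the word in capitals with 8 bases to either side, read on the strand where it spells ACGTG.
sqrd-1: tattgcctACGTGacttttct
cysl-3: cgcggtgaACGTGacttttct
cysl-3 weak region: agcgaggcACGTGcaaacatt
cysl-3 weak region, other strand: atgtttgcACGTGcctcgctc
cth-2 first copy: acagtttgACGTGacttacta
cth-2 second copy: gcacaattACGTGatttcagt
cysl-2: aagtgagtACGTGacatattg
cbs-1: atctaatcACGTGgttaattt
cbs-1, other strand: aattaaccACGTGattagata
cbs-1 coding exon: gatgcatgACGTGttgctttt
ethe-1: ccgcccaaACGTGattctagc
ethe-1 intron: caaaatagACGTGtataaatg
skn-1: aaatgcctACGTGactgttgt
rhy-1 first copy: gcatgtctACGTGactttcat
rhy-1 second copy: acatgcgtACGTGataatcag
cdo-1: ccttgcttACGTGacaattgc
egl-9: aactgtctACGTGcgcaaatg
Among copies at the strongest regions, the sqrd-1 and cysl-3 sites share the run ACGTGacttttct of 13 bases. It occurs 5 times in the genome on both strands together, and the only pooled regions with it within 50 bp of the summit were these 2. The sqrd-1 and skn-1 sites share a different run, tgcctACGTGact, also of 13 bases, which occurs 16 times in the genome and at 2 pooled regions, both thresholded. The cth-2 site shares the shorter ACGTGactt with sqrd-1 and cysl-3, and that run occurs 478 times in the genome, at 26 pooled regions and at 5 thresholded peaks. Longer words were read off these same copies, so their shares at the listed genes are no independent support for them. ACGTGA, of 6 bases, was present at 6 of the 27 pooled regions (22.2%), at 3.19% of all pooled regions and at 7.36% of thresholded peaks. The 7-base extension ACGTGAC was present at 4 of the 27 pooled regions of the listed genes (14.8%; 1 each at sqrd-1, cysl-2, cysl-3 and cth-2), at 0.78% of all pooled regions and at 4.34% of thresholded peaks. The other 8 of the 12 copies go on with other bases.

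Regulators of the H2S response and the neighbouring steps of sulfur metabolism gave the setting for these values. Of 31 further symbols, 29 matched a gene. A thresholded peak was present in the windows of 6 (egl-9, hif-1, rhy-1, skn-1, mtrr-1 and cdo-1), or 20.7% against 4.21% of all protein-coding genes. All 4 regulators were among these 6, with 1 of 8 methionine cycle genes and 1 of 7 breakdown genes. The list was chosen with earlier results of these data known, so its share describes the genes picked and not sulfur metabolism at large. No share was computed for genes with windows as long as those of the 29. A pooled region was present in the windows of 24 (82.8%) and a region of each replicate in those of 16 (55.2%), near the 79.7% and 51.3% of all genes. The median strongest signal over the 29 was 5.62, against 14.0 for the 9 sulfide and cysteine genes and 4.67 for all protein-coding genes.

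All 4 regulators on the list had a thresholded peak. EGL-9, the hydroxylase that CYSL-1 binds, had the strongest region of the pooled list, with signal 254, and of each replicate, with 167 and 94.9. RHY-1, a membrane acyltransferase that holds HIF-1 down through CYSL-1 and EGL-9, had a peak 964 bp upstream with signal 40.8 at rank 89, and 22.4 and 15.9 in the replicates. The hif-1 gene itself had a peak 1967 bp upstream with signal 36.9 at rank 120, and 27.1 and 5.19 in the replicates. SKN-1, a factor of the oxidative stress response, had 2 thresholded peaks in introns. The first had signal 51.3 at rank 32, with 43.03 and 5.69 in the replicates, and the second 27.5 at rank 247, with 14.2 and 11.8. Of the regulators, egl-9 alone exceeded sqrd-1 at 85.1, while cysl-2 at 25.7 was lower than the strongest region of each regulator. As at cysl-2, the signal of hif-1 and of the first skn-1 peak was carried more by replicate 1, whose ranks for them were 98 and 19, against 1515 and 1123 in replicate 2.

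The enzymes beyond the regulators had 2 thresholded peaks. CDO-1 is cysteine dioxygenase, which begins the breakdown of cysteine. Its peak 1009 bp upstream, in the 3′ UTR of lgl-1, had signal 23.1 at rank 340. It had 20.7 at rank 197 in replicate 1 and 3.17 at rank 7184 in replicate 2, where the median region had 2.88. This peak too was thus carried more by replicate 1. MTRR-1 is methionine synthase reductase. The peak in its window, 2945 bp upstream, had signal 19.4 at rank 477. The nearest protein-coding start was that of gldi-3, 2932 bp away, little closer than that of mtrr-1. The methionine cycle otherwise had weaker regions: sams-1, a S-adenosylmethionine synthetase gene, at 10.1, ahcy-1, for adenosylhomocysteinase, at 9.14, mthf-1, for methylenetetrahydrofolate reductase, at 6.39, metr-1, for methionine synthase, at 5.62, sams-3 and sams-4 at 4.72 from 1 region in both windows, and sams-5 at 4.43. The molybdenum cofactor and sulfite oxidase genes, listed with cdo-1 under cysteine and sulfite breakdown, had moc-2 at 9.81, moc-6 at 7.32, moc-1 at 4.62, suox-1 at 4.38 and moc-3 at 4.35, and no region at moc-5. Of the breakdown genes, cdo-1 thus had the highest signal.

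The glutathione genes ran from gsr-1, for glutathione reductase, at 15.9 through gss-1, for glutathione synthetase, at 10.2 to gcs-1, for the glutamate-cysteine ligase, at 3.87, none of them thresholded. The gsr-1 region lay 20 bp upstream of its start and had 10.5 and 3.25 in the replicates. The fourth member of the cysteine synthase family, cysl-4, had a region of 5.97. Of the 6 sulfurtransferase (mpst) genes that matched, mpst-1 at 4.32 and mpst-6 at 3.54 had a pooled region and the other 4 had none.

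**Figure D4:**
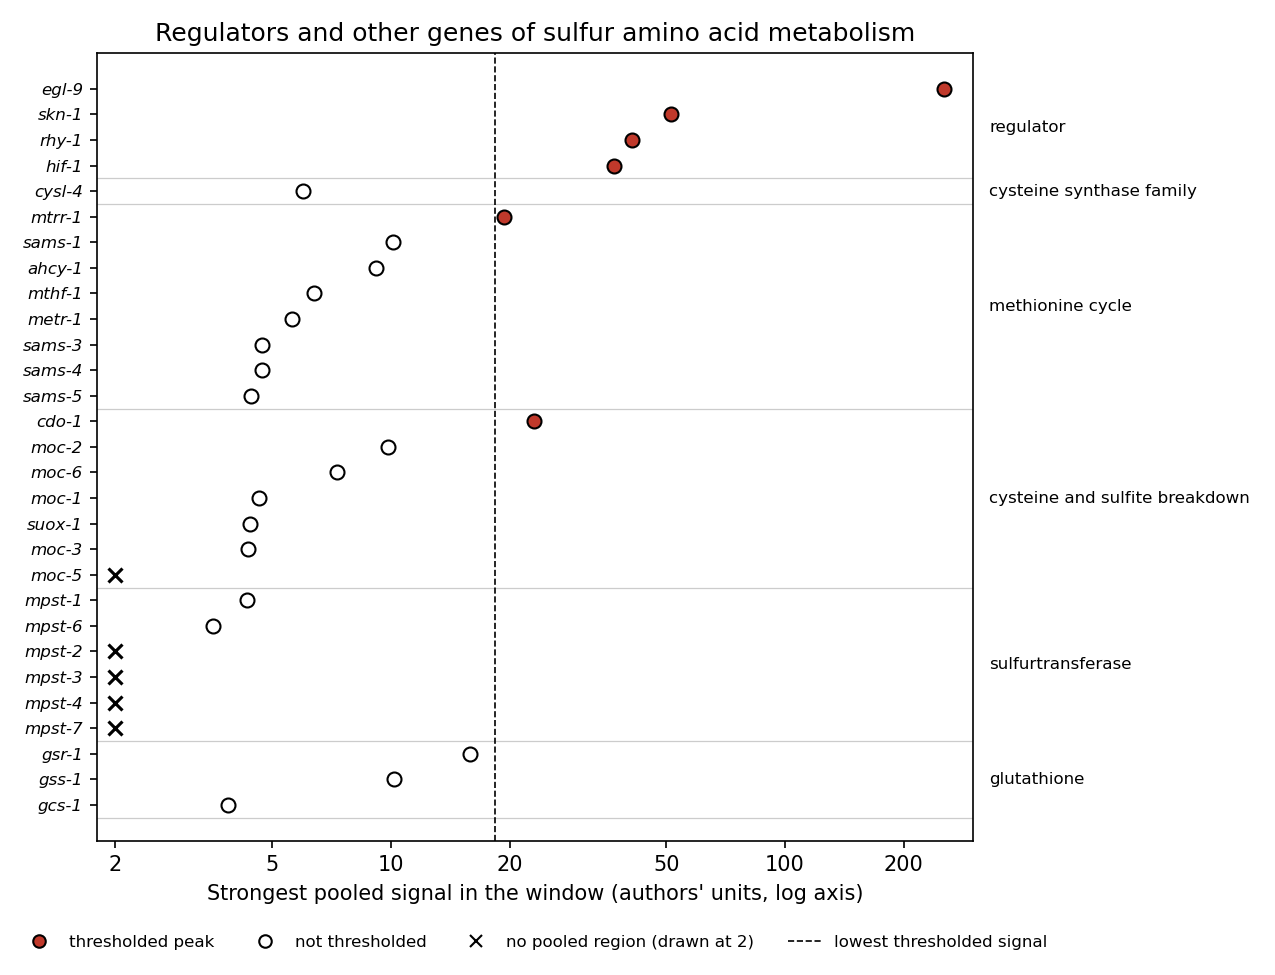
Strongest pooled signal in the window of 29 regulators and enzymes of sulfur amino acid metabolism, grouped by role, on a log axis in the authors' units; filled circles have a thresholded peak, crosses drawn at 2 have no pooled region, and the dashed line is the lowest thresholded signal, 18.4. The 4 regulators lie from 36.9 to 254, and mtrr-1 (19.4) and cdo-1 (23.1) are the only enzymes to the right of the line.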

How the data were processed

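The narrowPeak lists analysed were on ce11: relaxed lists of each replicate and of the pooled replicates, each made by the authors against a control, and the thresholded list kept by IDR, per the text deposited with the samples. Each list gives a signal per region, deposited as the authors' peak caller wrote it, and a −log10 q-value, deposited by the authors. The aligner, the peak caller, the IDR threshold and the read depth are not given in the sources used here. Neither the control nor the ce10 lists were analysed here. Replicate numbers are those of the labels, which call the replicates biological and do not say how they were grown.

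Summits were set against Ensembl release 115 genes on 6 chromosomes, with 1-based coordinates, using Python 3.11.15 and numpy 2.4.6; figures used matplotlib 3.10.9. Regions of different lists were matched where summits lay within 150 bp. Words were searched in the RefSeq WBcel235 sequence within 50 bp of a summit. Counting was tested on simulated data. The genes named are all members, each pathway gene with a pooled region, the nearest protein-coding start of regions described, and the rank neighbours of thresholded member peaks. Of the pathway symbols, 2 (moc-4 and mpst-5) matched no gene. The members and lists were chosen with earlier results of these data known. Alternatives were other windows, 1 nearest gene per region, stricter lists, single replicates and other search widths.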

Additional observations from a re-analysis of the deposited data

How the results depend on the processing

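Among 35 recomputed counts, 22 stayed within 1.5 times the reported one; percentages are the share of all protein-coding genes under the same setting. The 2 genes with a thresholded peak became 1 (sqrd-1) with windows from 1 kb upstream to 200 bp downstream of any start (2.73%), from 1 kb upstream to the gene end (2.97%), with the nearest start only (2.23%) and with the stronger part of the thresholded list (2.12%), and 3 (with cysl-1) from 5 kb upstream (5.36%). Either replicate alone gave 2, without replicate 1 (3.89%) and without replicate 2 (4.15%). The 9 genes with a pooled region became 5 in the any-start window (43.3%), and the 9 with regions of both replicates became 2 there (15.9%) and 5 with 1 kb upstream to the gene end (34.7%). The 5 genes with a region of the highest q became 1 in each of these windows (4.9% and 5.47%), 2 with the nearest start only (4.36%) and 6 from 5 kb upstream (9.76%), and ranged from 2 to 4 without one replicate. The 9 regions with ACGTG became 14 within 100 bp of the summit (16.9% of all pooled regions) and 3 within 25 bp (4.58%). For the strongest region, settings that left a gene with no pooled region were not counted. These were the any-start window for cysl-1, cysl-2, cysl-3 and cbs-2. They were also 3 kb upstream only for cysl-1 and cbs-2, and 1 kb upstream to the gene end for cysl-2 and cysl-3. In the 46 recomputations that remained, the strongest region was another one in 10, at ethe-1, cysl-1, cysl-2, cth-2 and cbs-1. The cause was not tested. No paired analysis was possible because there is 1 group. The depth is unknown, and weak regions near the lowest listed signal cannot be told from background in these lists.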
